A study of Mus musculus with 30 samples.

Results

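The 10 core genes of the circadian clock, Per1, Per2, Per3, Cry1, Cry2, Arntl (also called Bmal1), Clock, Dbp, Nr1d1 and Nr1d2, were followed in the cervical spinal cord after cortical stroke. They were found by their symbols, 1 row each, among the 16995 genes measured. RNA was taken from the intermediate laminae of spinal levels C5/C6 on the stroke-denervated side of adult female C57BL/6 mice (C57BL/6J in the methods of the study). The group labelled Ctrl was sham operated, that is, operated without illumination of the skull, and the other groups had received a photothrombotic stroke of the right sensorimotor cortex 4, 7, 14, 28 or 42 days earlier (days post injury, dpi). No transgene or drug distinguished the groups. Values were used for 29 animals, 4 at 4 dpi and 5 in each other group, and 1 further animal labelled 4 dpi has no column of values. The methods report that 1 sample at 4 dpi was left out as an outlier in the study's differential expression test. The mice were housed under a light/dark cycle. According to the methods, morning or evening was a block when animals were randomized so that surgery days were balanced over groups, and the time of day at which tissue was taken is given neither there nor in the labels.

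The circadian clock is a transcription loop that runs in nearly every cell of the body. ARNTL and CLOCK pair and switch on the Per and Cry genes, whose proteins return to the nucleus and silence that pair. The nuclear receptors encoded by Nr1d1 and Nr1d2 (REV-ERB alpha and beta) are switched on by the same pair and repress Arntl, and DBP carries the rhythm to output genes. The messenger RNA of most of these genes therefore rises and falls over the day, with Dbp and the Per genes high when Arntl is low.

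Each value is the authors' normalized CPM (read counts scaled per library and normalized with edgeR). It is not divided by gene length, so levels are compared between animals for 1 gene and not between genes. The values did not have the same sum in every animal. The sum ran from 714596.8 (A10-4, 4 dpi) to 2256910 (A3-3, 28 dpi), while the median value of an animal lay between 10.2 and 11.2. Rn18s-rs5, a ribosomal RNA, ranged from 30320.8 to 52929.1 normalized CPM in the sham animals and from 44755.2 to 779159.7 at 28 dpi. Its level differed between these groups by 2.85 ± 0.74 on the log2 scale (SE; limma adjusted p = 0.0075). Rn18s-rs5 ran from 18295.2 to 114025.9 at 4 dpi, from 36201.9 to 116302.3 at 7 dpi and from 32753.5 to 817779.7 at 14 dpi. At 42 dpi, at 78737.4 to 457301.5, all animals were above the sham range. It passed the test against the sham group at 28 dpi only. Of 5 oligodendrocyte markers 3 were lower at 28 dpi, where 13.0% of all genes were lower and 11.9% higher, with a summed level of 4250.6 to 6264.8 against 5913.2 to 8798.6 in the sham animals. Of the other marker lists at 28 dpi, 1 of 6 neuron markers was higher (Slc6a5) and 1 lower (Snap25), 1 of 5 astrocyte markers was higher and 2 lower, and 1 of 5 microglia and 1 of 5 endothelial and blood cell markers were higher. At 4 dpi, 1 of 5 microglia and 1 of 5 astrocyte markers were higher, beside 0.0883% of all genes. The summed microglia level was 73.2 to 106.1 there, 60.6 to 90.9 at 7 dpi and 56.2 to 66.7 in the sham animals. No marker of these lists passed at 7, 14 or 42 dpi. The part of these markers in the values of the clock genes was not tested. In bulk tissue, fewer cells of a type and less RNA per cell cannot be told apart. Of the spinal position markers, all 5 Hox genes were present in every animal (Hoxc6 from 11.6 to 19.7 normalized CPM), Slc6a5 of glycinergic neurons was at 290.4 to 377.8 in the sham animals and at 382.3 to 479.2 at 28 dpi, and the forebrain marker Neurod6 did not exceed 2.4. The pituitary hormone genes Prl, Gh and Pomc did not exceed 0.2, 0.1 and 0.5 in the sham animals and reached 19.6 (7 dpi), 7.4 (7 dpi) and 7.4 (4 dpi) after stroke, and none of them passed the test against the sham group. Their part in the values of the clock genes was not tested.

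Upstream sequences are shown for Nr1d1 and Cry2, the genes that differed from the sham group, and for Per3 and Arntl. The values of Per3 and Arntl had a positive and a negative correlation with Dbp between animals. For Per3, r was 0.61 over all animals and 0.03 within the numbers in the animal labels. Nr1d2, whose window is not shown and held no motif, had the higher r with Dbp (0.72 over all animals and 0.34 within label numbers). The part of the motifs in these values was not tested. The sequences are the 250 bases before the transcription start of a RefSeq entry, for Arntl the first of 2 (GRCm38.p6, the mm10 assembly). They run 5′ to 3′ along the gene's strand, and capitals mark a motif read on either strand. RefSeq entries were matched for 9 of the 10 genes. The motifs searched were the E-box CACGTG, to which the ARNTL and CLOCK pair binds, its variant CACGTT, the D-box TTANGTAA bound by DBP, the letters TAGGTCA and TGGGTCA that are bound by REV-ERB and ROR receptors, and the cAMP response element TGACGTCA.
Nr1d1, minus strand, chr11:98775378-98775627: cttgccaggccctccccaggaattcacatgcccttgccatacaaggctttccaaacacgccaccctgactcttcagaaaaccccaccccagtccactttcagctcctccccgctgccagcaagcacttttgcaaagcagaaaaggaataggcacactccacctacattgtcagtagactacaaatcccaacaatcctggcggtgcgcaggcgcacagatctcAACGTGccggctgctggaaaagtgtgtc
Cry2, minus strand, chr2:92434070-92434319: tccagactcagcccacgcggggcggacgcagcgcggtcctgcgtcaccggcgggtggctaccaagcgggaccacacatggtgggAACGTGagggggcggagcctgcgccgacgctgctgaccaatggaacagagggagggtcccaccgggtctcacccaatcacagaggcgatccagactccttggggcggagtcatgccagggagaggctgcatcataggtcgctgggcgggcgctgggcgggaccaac
Per3, minus strand, chr4:151044666-151044915: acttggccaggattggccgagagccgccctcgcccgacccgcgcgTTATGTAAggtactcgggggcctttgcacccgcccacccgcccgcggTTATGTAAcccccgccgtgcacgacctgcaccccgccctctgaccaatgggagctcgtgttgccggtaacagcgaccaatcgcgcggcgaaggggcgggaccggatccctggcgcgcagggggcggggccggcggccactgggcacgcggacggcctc
Arntl, plus strand, chr7:113207215-113207464: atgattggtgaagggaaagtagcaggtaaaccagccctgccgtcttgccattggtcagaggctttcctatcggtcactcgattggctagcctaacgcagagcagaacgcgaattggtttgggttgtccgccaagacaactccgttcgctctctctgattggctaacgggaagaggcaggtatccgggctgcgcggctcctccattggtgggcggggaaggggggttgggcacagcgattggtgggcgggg
Nr1d1 held CACGTT 28 bases before its start and Cry2 held it 166 bases before, each counted from the first base of the motif and each read on the opposite strand. In Per3, TTANGTAA occurred at 205 and 158 bases before the start. Among 32851 promoter windows of this length, 3.85% held CACGTT and 2.06% held TTANGTAA. CACGTG was present upstream of 1 of the 2 Per1 entries (166 bases) and upstream of Cry1 (60 bases), and in 6.02% of all windows. Cry1 also held CACGTT at 79 bases. The windows of Arntl (2 entries), Clock (3 entries), Dbp and Nr1d2 held none of the letters searched, and TAGGTCA was in no clock gene window but in 2.23% of all windows. The same held for TGGGTCA, with 3.24% of all windows, and for the cAMP response element, with 1.55%. Bases outside these windows were not searched, so a site elsewhere in a gene would be missed.

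Against the sham group at 28 dpi, 2 of the 10 clock genes passed the test, beside 24.9% of all genes, so the clock genes did not pass more often than genes at large. Nr1d1 rose 1.63-fold and Cry2 rose 1.17-fold, and the other 8 genes did not pass the test. The test was limma's moderated test of log2(value + 0.5) over all 6 groups with Benjamini-Hochberg adjustment over 16995 genes, and a gene passed at an adjusted p under 0.05. The 2 clock genes that passed were both higher, where 11.9% of all genes were higher. With a fold limit of 1.5 added, 1 of 10 clock genes was called, Nr1d1, beside 4.64% of all genes. At 4, 7, 14 and 42 dpi limma passed 0 of 10 clock genes, beside 0.106%, 0.0294%, 0.00588% and 0.0235% of all genes. An unadjusted p under 0.05 was reached by 2, 3, 3 and 1 clock genes at those times, beside 5.14%, 5.84%, 11.6% and 14.8% of all genes. The median log2 fold change of the 10 genes against the sham group lay between -0.04 and 0.05 at the 5 time points, and that of all genes between -0.01 and 0.01.

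**Figure D1:**
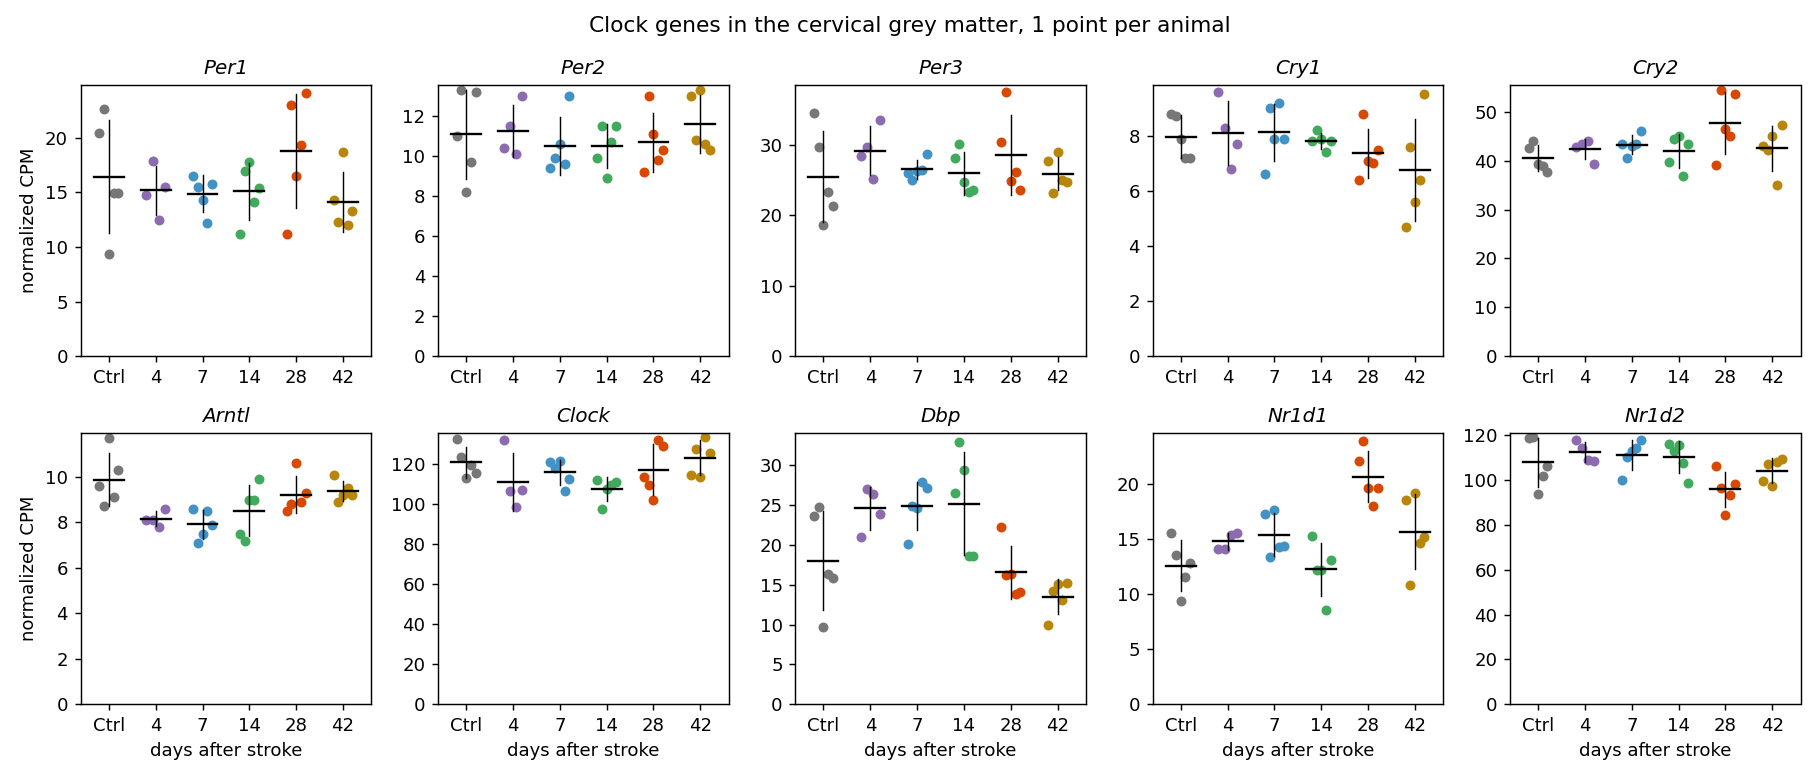
Normalized CPM of the 10 clock genes (vertical axes, from 0) by group, the sham animals (Ctrl) first and then the 5 times after stroke in days (horizontal axes), with 1 point per animal, the group mean as a horizontal bar and 1 SD either side as a vertical line. Nr1d1 at 28 dpi lies above every sham animal, Dbp lies between 20.1 and 32.9 in all but 2 animals of 4 to 14 dpi and between 9.9 and 22.2 at 28 and 42 dpi, and the Per1 and Per2 groups overlap at every time.

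Arntl is the activator without which the loop stops, and it lies on chromosome 7 (113207465 to 113314126, mm10). The sham animals had 9.6, 8.7, 11.7, 9.1 and 10.3 normalized CPM. The 4 dpi animals had 8.1, 8.1, 7.8 and 8.6, and the 7 dpi animals 8.6, 7.1, 7.5, 8.5 and 7.9. All 9 of these animals were below the lowest sham animal. The log2 fold change was -0.26 ± 0.10 (SE, n = 4 against 5) at 4 dpi and -0.30 ± 0.09 (n = 5 against 5) at 7 dpi, and neither passed the limma test over all genes (adjusted p = 0.64 and 0.69). Among all genes, 0.612% at 4 dpi and 0.583% at 7 dpi lay wholly below the sham animals. At 14 dpi Arntl was at 7.5, 7.2, 9, 9 and 9.9, overlapping the sham range (log2 fold change -0.20 ± 0.09, limma adjusted p = 0.40). The means at 28 and 42 dpi, 9.22 ± 0.82 and 9.38 ± 0.46 normalized CPM (SD, n = 5), were nearer the sham mean of 9.88 ± 1.18, with log2 fold changes of -0.09 and -0.07. The groups of Arntl thus ordered as 7, 4, 14, 28 and 42 dpi and sham from lowest to highest mean, and the F test over the 6 groups did not separate them (limma adjusted p = 0.052).

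Clock, the partner of Arntl, was lowest at 14 dpi. It had 111.7, 97.5, 107.1, 109.4 and 110.9 normalized CPM there and 132.5, 123.1, 112.8, 119.1 and 115.4 in the sham animals. The ranges did not overlap, as was so in this direction for 0.953% of all genes at 14 dpi. The log2 fold change of -0.17 ± 0.07 (SE, n = 5 against 5) did not pass the limma test (adjusted p = 0.40). At 4, 7, 28 and 42 dpi the mean of Clock lay between 110.7 and 122.8 and the range overlapped that of the sham group.

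The 3 Per genes encode the PERIOD repressors, of which Per1 and Per2 also respond to hormones and to neuronal activity within hours. Per1 had 20.4, 22.6, 9.4, 14.9 and 14.9 normalized CPM in the sham animals and 11.2, 23, 16.5, 19.3 and 24.1 at 28 dpi. The lowest and the highest animals of both groups differed by more than 2-fold, and the groups overlapped over most of their range. The log2 fold change of Per1 at 28 dpi was 0.20 ± 0.18, with a 95% confidence interval from -0.18 to 0.58. Per2 stayed between 8.2 and 13.3 in all 29 animals, and its log2 fold changes against the sham group lay between -0.06 and 0.08. Per3 had its highest single value, 37.6, in a 28 dpi animal and its lowest, 18.7, in a sham animal, and its log2 fold changes ran from 0.05 at 14 and 42 dpi to 0.22 ± 0.13 at 4 dpi. None of the 3 Per genes passed at any time against the sham group, with unadjusted p from 0.11 to 0.78. Of 9 genes that glucocorticoid hormones induce, as they do Per1, 4 were lower at 28 dpi (Sgk1, Tsc22d3, Klf9 and Errfi1), beside the 13.0% of all genes, and the summed level of the list was 245.4 to 296.1 against 336.5 to 434 in the sham animals. Of 8 immediate early genes, which neuronal activity induces, Fos was lower at 28 dpi (log2 fold change -0.66 ± 0.24, limma adjusted p = 0.041) and the other 7 did not pass, and their summed level was 37 to 72 against 58.4 to 78.3 in the sham animals. The part of these lists in the values of the Per genes was not tested.

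Cry1 and Cry2 encode the cryptochromes, which bind the ARNTL and CLOCK pair and silence it. Cry2 had 39.1, 54.5, 46.4, 45.1 and 53.6 normalized CPM at 28 dpi and 42.6, 44, 39.4, 38.8 and 37.6 in the sham animals. Of the 5 animals at 28 dpi, 4 were above every sham animal and the animal at 39.1 lay within the sham range. The log2 fold change was 0.23 ± 0.08 (SE, n = 5 against 5, limma adjusted p = 0.038). Cry2 no longer passed without the sham animal A12-1, A12-2 or A12-3 (adjusted p = 0.0836, 0.0752 and 0.0942) or the 28 dpi animal A3-3 or A4-4 (adjusted p = 0.14 and 0.11), in the same limma test. It did not pass with Rn18s-rs5 as a covariate (0.16, limma adjusted p = 0.34), and with the same sum of values in every animal it stood at -0.55, or 0.17 above the median of all genes (adjusted p = 0.0506). Cry2 shares 295 exon bases, 4.67% of its exons, with D930015M05Rik on the opposite strand, and whether counting used strand is not stated. D930015M05Rik was at 0.98 normalized CPM on average at 28 dpi and 0.7 in the sham group. Cry1 did not pass at any time, and its lowest mean, 6.76 ± 1.87 normalized CPM (SD, n = 5), was at 42 dpi against 7.96 ± 0.78 in the sham group (log2 fold change -0.25 ± 0.13, limma adjusted p = 0.35). The 42 dpi animals spread from 4.7 to 9.5 and included both the lowest Cry1 value of all animals and one above every sham animal.

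Nr1d1 gave the largest difference from the sham group among the clock genes. It lies on chromosome 11 (98767932 to 98775333, minus strand, mm10). The sham animals had 15.6, 13.6, 9.4, 11.6 and 12.8 normalized CPM and the 28 dpi animals 22.1, 23.9, 19.7, 18 and 19.7. All 5 animals at 28 dpi were above all 5 sham animals, as was so in this direction for 6.15% of all genes. The log2 fold change was 0.70 ± 0.14 (SE; 95% confidence interval 0.42 to 0.99; limma adjusted p = 0.0016). Leaving out any 1 of these 10 animals gave values from 0.61 to 0.78 with adjusted p from 0.00108 to 0.00940 in limma, and Nr1d1 was called each time.

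The other groups of Nr1d1 lay lower. The 4 dpi animals had 14.1, 14.1, 15.4 and 15.6, the 7 dpi animals 17.3, 13.4, 17.7, 14.3 and 14.4, and the 14 dpi animals 15.3, 12.2, 12.2, 8.6 and 13.1 normalized CPM. All of these were below the lowest 28 dpi animal. At 42 dpi the values were 18.6, 10.8, 19.2, 14.7 and 15.2, so that 2 of the animals reached the 28 dpi range. From lowest to highest mean the order was 14 dpi (12.3), sham (12.6), 4 dpi (14.8), 7 dpi (15.4), 42 dpi (15.7) and 28 dpi (20.7), and the first 5 groups in this order overlapped their neighbours. Nr1d1 at 28 dpi was higher than at 4 dpi by 0.46 ± 0.15 on the log2 scale (in limma, adjusted p = 0.028), than at 7 dpi by 0.41 ± 0.14 (adjusted p = 0.023) and than at 14 dpi by 0.74 ± 0.14 (adjusted p = 1.291e-04). Nr1d1 no longer passed against 4 dpi without A9-4, A10-1 or A3-3 and against 7 dpi without A7-3, A8-1, A8-3 or A3-3 (adjusted p from 0.0502 to 0.0850), and against 14 dpi it passed without any 1 animal. Without the 2 animals of highest Rn18s-rs5, a setting chosen after seeing the data, Nr1d1 did not pass against 4 or 7 dpi (0.41 and 0.36, limma adjusted p = 0.0873 and 0.0765). With Rn18s-rs5 as a covariate Nr1d1 did not pass against 4 or 7 dpi (0.39 and 0.35, limma adjusted p = 0.28 and 0.13). With the same sum of values in every animal it passed against none of the 3 times, with log2 fold changes of -0.32, -0.28 and 0.48 against 4, 7 and 14 dpi (adjusted p = 0.30, 0.35 and 0.27). That scaling moved the median of all genes to -0.74, -0.64 and -0.22 in these comparisons, and Nr1d1 lay 0.42, 0.35 and 0.71 above it. Nr1d1 did not pass against 42 dpi, which was lower by -0.41 ± 0.14 (adjusted p = 0.096). Higher and without overlap at 28 dpi were 5.08% of all genes against 4 dpi, 5.25% against 7 dpi and 10.2% against 14 dpi.

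Ribosomal RNA was high in 4 of the 5 animals at 28 dpi. The remaining animal, A4-1, had 44755.2 normalized CPM of Rn18s-rs5, within the sham range, and 19.7 of Nr1d1, above every sham animal. Within groups, r between Nr1d1 and Rn18s-rs5 was 0.14 over 29 animals. With Rn18s-rs5 as a covariate the log2 fold change of Nr1d1 was 0.63 and no longer passed (limma adjusted p = 0.0597), a fit in which 0 of 16995 genes were called at 28 dpi. The part of ribosomal RNA in the values of Nr1d1 was not tested. When all animals were rescaled to the same sum of values, the median of all genes at 28 dpi shifted by -0.73 on the log2 scale and Nr1d1 stood at -0.06, or 0.67 above that median. Nr1d1 shares 263 exon bases, 8.55% of its exons, with Thra on the opposite strand, and reads of the shared stretch cannot be told apart without strand. Thra averaged 98.9 normalized CPM at 28 dpi and 108 in the sham group (log2 fold change -0.12 ± 0.06, limma adjusted p = 0.13).

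Nr1d2, the second REV-ERB gene, did not rise at 28 dpi. Its values there were 106.2, 96.6, 84.2, 93.5 and 98.4 normalized CPM, against 118.8, 119.2, 93.8, 101.7 and 106.1 in the sham group. The groups overlapped and the log2 fold change of -0.17 ± 0.07 did not pass (SE, n = 5 against 5, limma adjusted p = 0.061). At 4 dpi the values were 118, 114.2, 108.8 and 108.6, at 7 dpi 99.9, 110.2, 113, 114.3 and 118, and at 14 dpi 116, 112.9, 115.7, 107.7 and 98.8. Against these groups Nr1d2 fell at 28 dpi by 0.23 ± 0.07, 0.21 ± 0.07 and 0.20 ± 0.07 on the log2 scale (limma adjusted p = 0.024, 0.016 and 0.015). With median centring none of the 3 differences passed (-0.19, -0.18 and -0.16, limma adjusted p = 0.0860, 0.0703 and 0.0827). With Rn18s-rs5 as a covariate those against 4 and 7 dpi did not (-0.23 and -0.22, adjusted p = 0.21 and 0.0650). In a fit of only the 2 groups, that against 4 dpi did not pass (-0.23, adjusted p = 0.0849). With the same sum of values in every animal that against 14 dpi did not pass (-0.47, or -0.24 from the median of all genes, adjusted p = 0.27). Without A4-1 none of the 3 passed (adjusted p from 0.0514 to 0.0570), and that against 4 dpi also did not pass without A9-2, A9-4, A10-1, A3-3 or A4-3 (adjusted p from 0.0514 to 0.0688). The 28 and 4 dpi animals did not overlap, as was so in this direction for 4.28% of all genes.

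**Figure D2:**
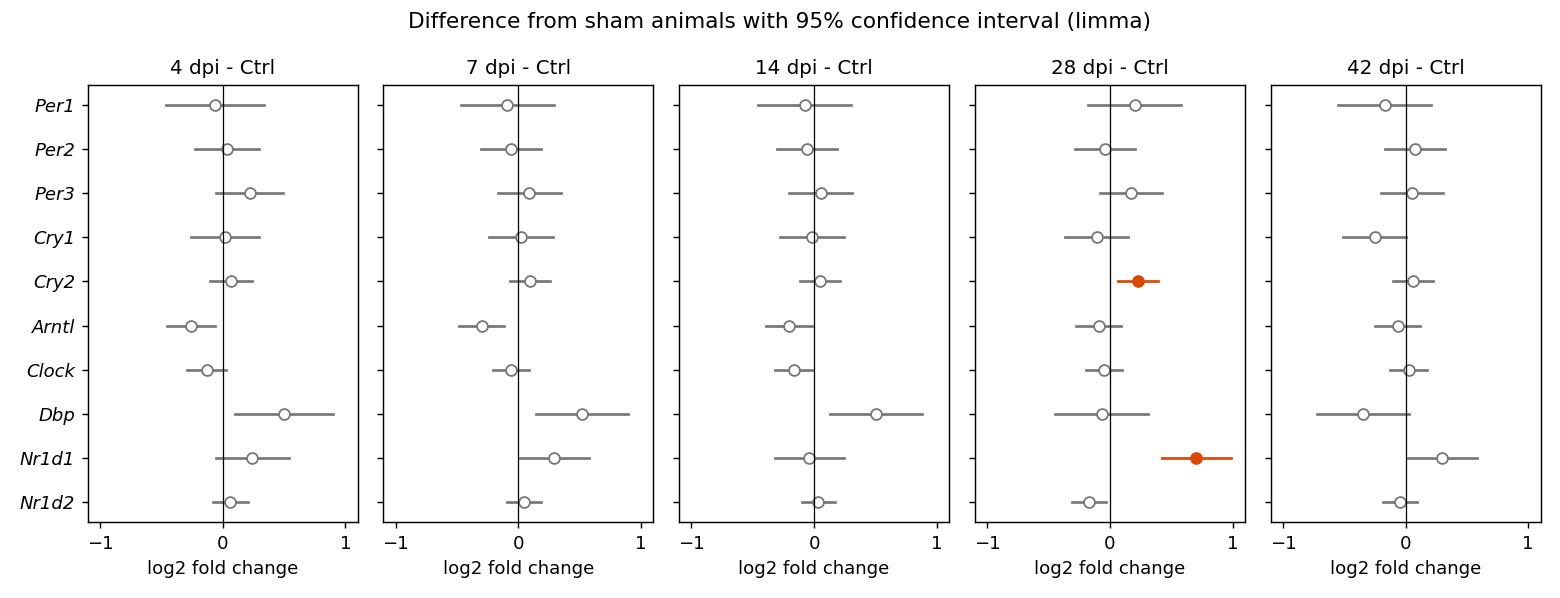
Log2 fold change of each clock gene (rows) at each time after stroke minus the sham group (1 panel per time), with its 95% confidence interval from limma. Filled points passed at an adjusted p under 0.05, which at 28 dpi were Nr1d1 (0.70) and Cry2 (0.23), and at the other times no interval belongs to a gene that passed.

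Dbp encodes a PAR bZIP factor that activates output genes through D-boxes, and its messenger RNA is among the most strongly cycling in many tissues. Its values were 23.6, 24.8, 9.7, 16.3 and 15.8 normalized CPM in the sham animals, a 2.56-fold range. At 4 dpi they were 21, 27, 26.4 and 23.9, at 7 dpi 20.1, 24.9, 24.6, 27.9 and 27.1, and at 14 dpi 26.5, 32.9, 29.4, 18.6 and 18.6. At 28 dpi they were 22.2, 16.2, 16.4, 13.9 and 14.1, and at 42 dpi 9.9, 14.2, 15.1, 13.1 and 15.2. The animals of 4 to 14 dpi were thus mostly high, those of 42 dpi low, and the sham group ran from the low range into the high one, with 8 of the 14 animals of 4 to 14 dpi above every sham animal. Against the sham group the log2 fold changes were 0.50 ± 0.19, 0.52 ± 0.18 and 0.51 ± 0.18 for the first 3 times, then -0.07 ± 0.18 and -0.35 ± 0.18 for 28 and 42 dpi, and none passed (limma adjusted p from 0.38 to 0.82).

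Between the stroke groups Dbp did differ. It fell from 14 to 42 dpi by 0.85 ± 0.18 on the log2 scale (in limma, adjusted p = 0.0065), and all 5 animals at 42 dpi were below all 5 at 14 dpi, as were 6.35% of all genes. At 28 dpi it was lower than at 4 dpi by -0.57 ± 0.19, than at 7 dpi by -0.59 ± 0.18 and than at 14 dpi by -0.57 ± 0.18 (limma adjusted p = 0.039, 0.016 and 0.013). The difference from 4 dpi no longer passed without A9-4, A10-1, A10-4, A3-3, A4-3 or A4-4 (adjusted p from 0.0588 to 0.112), nor did that from 14 dpi without A5-3 (adjusted p = 0.0504). The difference from 4 dpi also missed the threshold with quantile normalization, with median centring, without a trend and in a robust fit (limma adjusted p from 0.0543 to 0.0561). It also did so without the 2 animals of highest Rn18s-rs5 (-0.57, adjusted p = 0.0760), a setting chosen after seeing the data. With Rn18s-rs5 as a covariate the differences from 4 and 7 dpi did not pass (-0.50 and -0.54, adjusted p = 0.29 and 0.0912). With the same sum of values in every animal, the difference of 42 from 14 dpi (-0.88, limma adjusted p = 0.53) and that of 28 from 14 dpi (-0.83, adjusted p = 0.0556) did not pass, and they lay -0.86 and -0.61 from the median of all genes. The 42 dpi animals were also all below the 7 and the 4 dpi animals, as were 1.83% and 1.81% of all genes, but these differences of -0.87 and -0.85 did not pass (adjusted p = 0.051 and 0.065). From lowest to highest mean the groups of Dbp ordered as 42 dpi (13.5), 28 dpi (16.6), sham (18.0), 4 dpi (24.6), 7 dpi (24.9) and 14 dpi (25.2). Each neighbouring pair in that order overlapped. Dbp shares 539 exon bases, 18% of its exons, with Sphk2 on the opposite strand, and reads of the shared stretch cannot be told apart without strand. Sphk2 averaged 19.2 normalized CPM in the sham group and 18.9, 17.1, 19.0, 21.2 and 17.1 at 4, 7, 14, 28 and then 42 dpi. It passed the F test over the 6 groups (limma adjusted p = 0.018) and was higher at 28 than at 7 dpi (log2 difference 0.30 ± 0.08, adjusted p = 0.0044), where Dbp was lower, and its differences of 28 from 4 and 14 dpi and of 42 from 14 dpi did not pass. The part of Sphk2 in the values of Dbp was not tested.

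Counted over all 10 genes, Nr1d1 was the gene higher and Dbp and Nr1d2 were the genes lower at 28 dpi than at 4, 7 and 14 dpi. Against 4 dpi 8.24% of all genes were higher and 11.7% lower, against 7 dpi 14.4% and 16.8%, and against 14 dpi 21.0% and 21.9%. With the fold limit of 1.5, Dbp was called against 7 dpi (7.27% of all genes), just past the limit of 0.585 on the log2 scale, and Nr1d1 against 14 dpi (11.8%). From 14 to 42 dpi Dbp was lower, where 6.24% of all genes were lower and 2.06% were called. The 3 comparisons with 28 dpi share its animals. In the other 6 pairs of stroke times, limma passed 0 of 10 clock genes. For 7 against 4 dpi, 14 against 4 dpi, 42 against 4 dpi, 14 against 7 dpi, 42 against 7 dpi and 42 against 28 dpi, the clock genes with an unadjusted p under 0.05 numbered 0, 0, 1, 1, 3 and 1, beside 2.91%, 9.94%, 12.2%, 5.94%, 17.2% and 21.1% of all genes. The F test over the 6 groups passed Dbp (limma adjusted p = 0.0013) and Nr1d1 (adjusted p = 0.0017), 2 of 10 clock genes beside 31.6% of all genes.

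The animal labels carry a number, between A1 and A12, whose meaning they do not give. Each group held animals of 2 such numbers, A3 was shared by 2 animals at 28 dpi and 1 at 42 dpi and no other number by any groups, and for some clock genes the animals of a group split along them. In the sham group the A11 animals had 23.6 and 24.8 normalized CPM of Dbp and the A12 animals 9.7, 16.3 and 15.8. At 14 dpi the A5 animals had 26.5, 32.9 and 29.4 and the A6 animals both 18.6. Of the spread of log2 values within groups (sum of squares), the difference between label numbers held 69.1% for Per3, 65.1% for Dbp, 61.3% for Nr1d2 and 50.1% for Cry1, against a median of 24.8% and an upper quartile of 33.9% over all genes. It held 38.1% for Arntl, 31.2% for Nr1d1 and 18.7% for Per2, and 5 of the 10 clock genes were above that upper quartile.

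When the mean of each label number was taken as 1 sample, so that each group had 2, Nr1d1 still rose at 28 dpi (log2 fold change 0.69, limma adjusted p = 0.011) and still differed from 4, 7 and 14 dpi (adjusted p = 0.034, 0.032 and 0.0013). Every difference of Dbp and Nr1d2 between stroke times then missed the threshold (adjusted p from 0.0758 to 0.150), with log2 differences of -0.72 to -0.47 for Dbp and -0.22 to -0.17 for Nr1d2, as did Cry2 at 28 dpi (adjusted p = 0.12). The F test gave an adjusted p of 0.017 for Nr1d1 and 0.083 for Dbp in that fit. This setting was added after the values were seen.

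**Figure D3:**
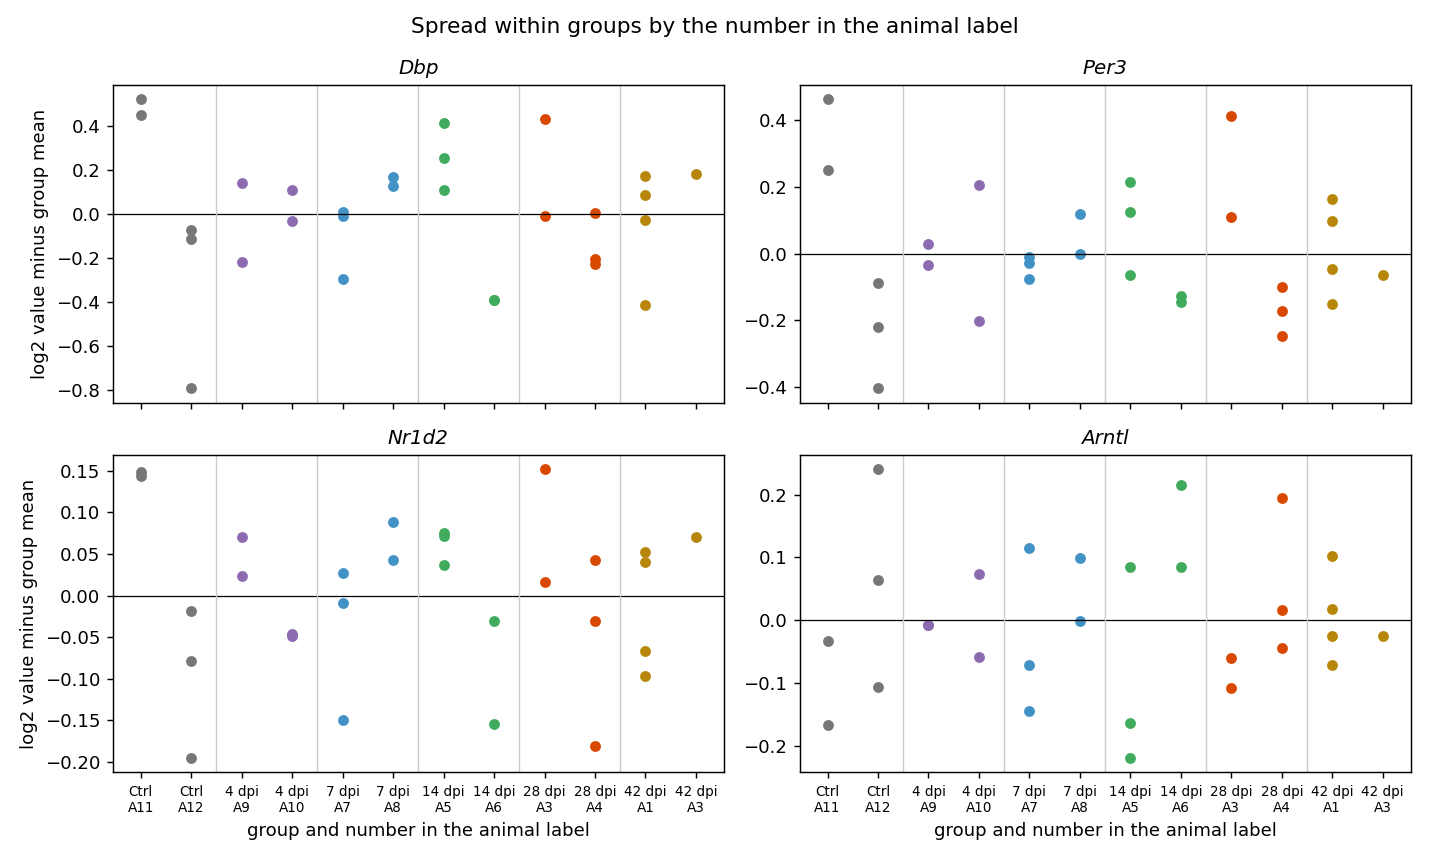
Log2 value minus the group mean (vertical axes) of Dbp, Per3, Nr1d2 and Arntl for each of 29 animals, placed by group and by the number in the animal label (horizontal axes, grey lines part the groups). In the sham group both A11 animals lie above all 3 A12 animals for Dbp, Per3 and Nr1d2, and at 14 dpi all 3 A5 animals lie above both A6 animals for these genes.

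Apart from the group means, some pairs of clock genes varied together between animals. Of 45 pairs, 6 had an r above 0.5 and 2 below -0.5, and 27 lay between -0.3 and 0.3. These correlations are over 29 animals after each group's mean was subtracted, and the animals of a group share its preparation and label numbers, so r is given as a description. Dbp went with Nr1d2 (r = 0.72, Spearman's rho 0.66) and Per3 (r = 0.61, rho 0.54) and opposite to Arntl (r = -0.66, rho -0.55). Arntl also went opposite to Nr1d2 (r = -0.64, rho -0.49). Per1 went with Cry2 (r = 0.64, rho 0.67) and Per2 (r = 0.58, rho 0.49), and Per3 with Nr1d1 (r = 0.63, rho 0.58) and Per2 (r = 0.525, rho 0.41). Nr1d1 and Nr1d2, the paired receptors, had r = 0.16. Clock had its strongest r, 0.36, with Nr1d2, and Cry1 its strongest, 0.43, with the same gene.

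Within label numbers 5 of the 8 values beyond 0.5 in size were nearer 0 and 3 were farther from it. The r of Dbp was 0.03 with Per3, 0.34 with Nr1d2 and -0.51 with Arntl, that of Arntl and Nr1d2 was -0.56 and that of Per3 and Nr1d1 was 0.50. Per1 had 0.67 with Cry2 and 0.64 with Per2, and Per2 had 0.63 with Per3. Clock and Nr1d2 had 0.60. With any 1 animal left out, 5 of the 8 pairs stayed beyond 0.5 in size, and the lowest r was 0.40 for Per2 and Per3, 0.44 for Per1 and Per2 and 0.48 for Dbp and Per3.

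**Figure D4:**
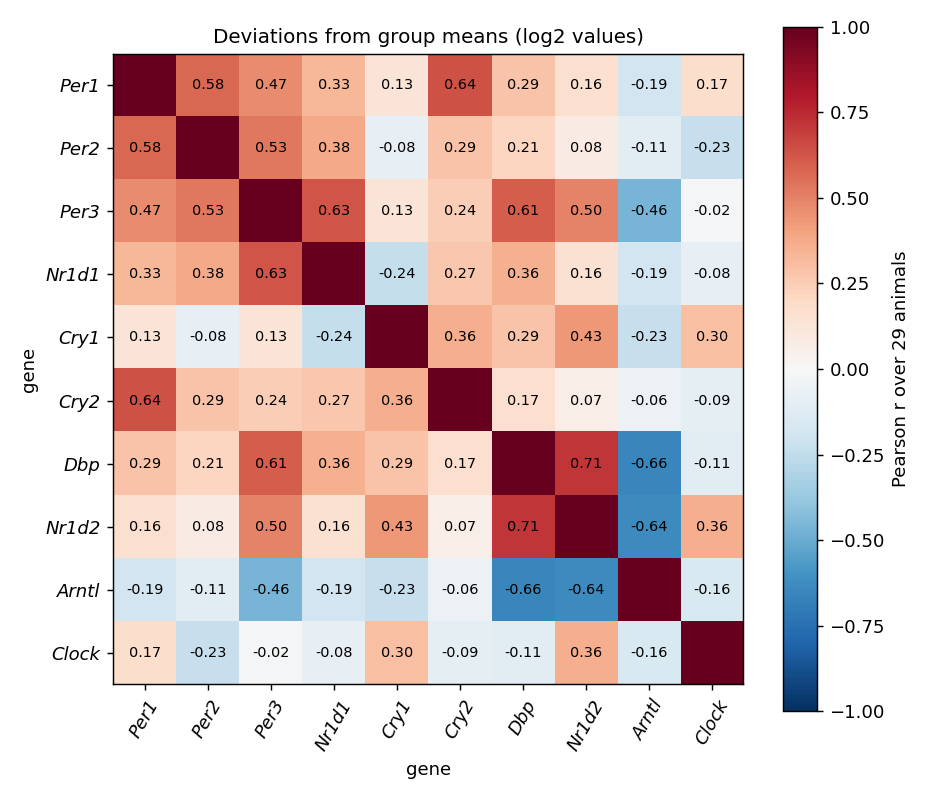
Pearson's r between each pair of clock genes (rows and columns, colour and printed value) over 29 animals, on log2 values after subtracting group means. Dbp with Nr1d2 (0.72) and Per1 with Cry2 (0.64) are among the highest values, and Arntl is negative with every other clock gene, lowest with Dbp (-0.66).

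Among the 11146 other genes with a mean value of at least 5, Nr1d2 was the second most like Dbp, after Plekho2 (r = 0.78) and before Dmwd (0.68), Cwc22 (0.68) and Ankrd16 (0.65). Per3 ranked 11 and Nr1d1 360, and of the other PAR bZIP genes Tef ranked 30 (r = 0.54) and Hlf 626 (r = 0.30). The 5 genes most opposite to Dbp were Ddx58 (-0.72), Spry4 (-0.70), Manf (-0.69), Cd93 (-0.67) and Arntl (-0.66). Dbp was in turn the gene most opposite to Arntl, before Ikzf2 (-0.65), Nr1d2 (-0.64), Zbtb16 (-0.63) and Mipol1 (-0.61). The genes most like Arntl were Cldn5 (0.66), Obsl1 (0.65), Ehd4 (0.61), Cinp (0.61) and Fuz (0.59), of which Cldn5 marks endothelial cells.

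Of 28 further genes of the clock machinery, 7 passed at 28 dpi (limma adjusted p under 0.05, beside the 24.9% of all genes) and 0 at 4, 7, 14 or 42 dpi. Of 4 activators and nuclear receptors, Npas2, which can stand in for Clock as the partner of ARNTL, rose by 0.50 ± 0.15 on the log2 scale (adjusted p = 0.018). It had 4.1, 8, 7.3, 8.1 and 6.7 normalized CPM at 28 dpi and 5.1, 4.7, 4, 3.8 and 5.4 in the sham group, so that 4 of 5 animals were above the sham range. The ROR genes Rora and Rorb, whose receptors activate Arntl where REV-ERB represses it, had log2 fold changes of 0.17 and 0.25 and did not pass. Of 6 further repressors, from Nfil3 (-0.32) to Timeless (0.09), none passed. Of 6 output genes, 1 rose and 1 fell. Hlf, a PAR bZIP gene like Dbp, rose by 0.37 ± 0.11 (adjusted p = 0.019), from 16.8 to 21.3 in the sham animals to 21.9 to 29.2 at 28 dpi without overlap (6.15% of all genes), while Nampt, which makes NAD, fell by 0.20 ± 0.06 (adjusted p = 0.025). Tef did not pass (log2 fold change -0.11).

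Of 12 kinase and ubiquitin ligase genes that act on clock proteins, 3 rose and 1 fell at 28 dpi, beside 11.9% and 13.0% of all genes. Fbxl21, which encodes a ligase subunit for cryptochromes, rose by 0.36 ± 0.10 on the log2 scale (in limma, adjusted p = 0.012), and all 5 animals, at 6.3, 7.4, 6.8, 6.4 and 7.1 normalized CPM, were above the sham range of 4.7 to 5.6 (6.15% of all genes). Gsk3b, whose kinase phosphorylates several clock proteins, rose by 0.29 ± 0.08 (adjusted p = 0.016), and Prkaa2, a catalytic subunit of AMPK, rose by 0.23 ± 0.07 (adjusted p = 0.023). Csnk2a1 of casein kinase 2 fell by 0.21 ± 0.07 (adjusted p = 0.019). Casein kinase 1 genes Csnk1d (0.06) and Csnk1e (-0.13), which set the period through the PER proteins, did not pass. The medians of the 4 lists at 28 dpi were 0.29, 0.02, -0.02 and -0.04, and that of all genes was -0.005.

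**Figure D5:**
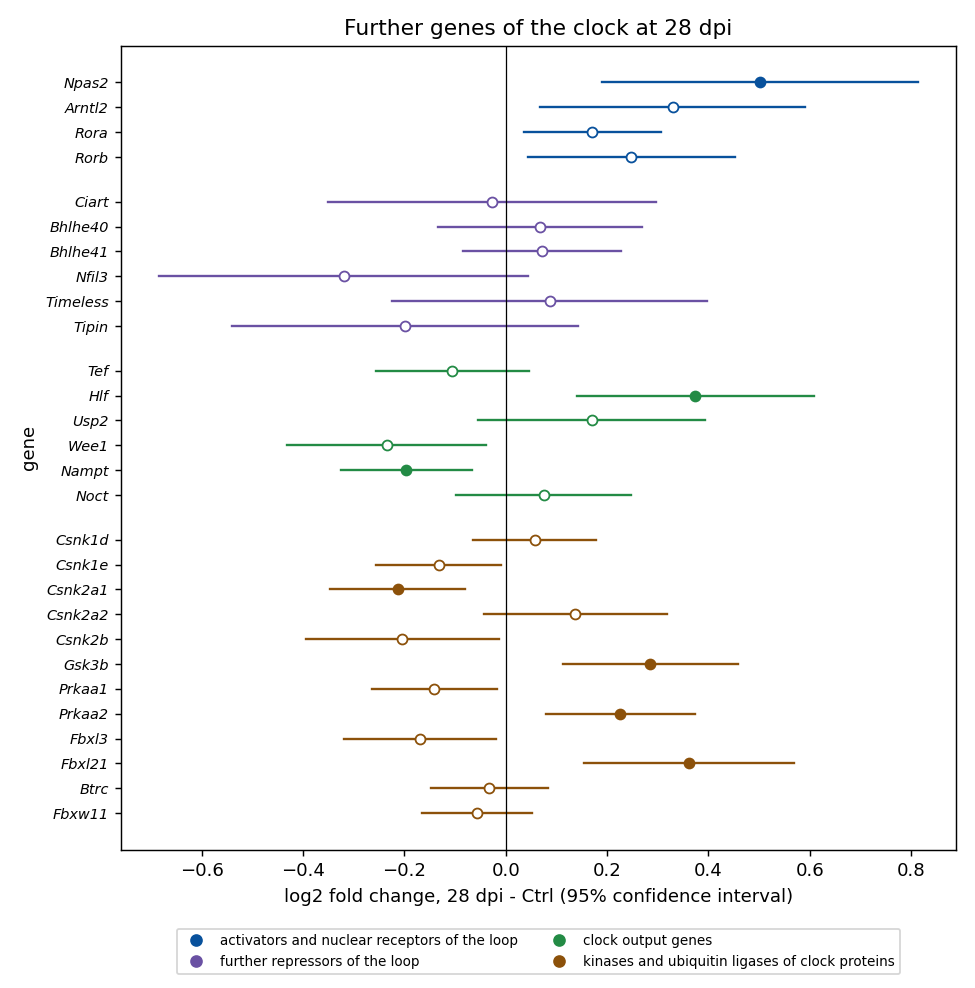
Log2 fold change at 28 dpi minus the sham group (horizontal axis) with its 95% confidence interval for 28 further clock genes (rows), coloured by list, with filled points for the 7 that passed at an adjusted p under 0.05. Npas2, Hlf, Fbxl21, Gsk3b and Prkaa2 lie above 0 and Nampt and Csnk2a1 below it.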

How the data were processed

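RNA of the intermediate laminae was sequenced in 6 groups, taken from the sample labels. Of 30 labelled animals, 29 have values, and every column was matched to 1 animal. The deposited table holds the authors' score for each gene and animal. Reads of ribo-depleted total RNA were quantified with SALMON on mm10, summarised per gene with Tximport and normalized with edgeR (R 3.4.1 and edgeR 3.14.0 in the submitters' processing notes), and genes of low expression were removed. The values are normalized CPM rounded to 0.1 and not counts, so the depth is unknown, methods for counts could not be applied, and the spread between animals is the measure of precision. The authors' own comparisons were not used.

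Values were analysed as log2(value + 0.5) with limma 3.58.1 (R 4.3.3), with 1 mean per group, a trend on the mean value and Benjamini-Hochberg adjustment over 16995 genes. The added 0.5 understates changes of low genes. Passing means an adjusted p under 0.05, and called adds a fold above 1.5. On simulated data with 200 changed genes at 28 dpi against the sham group, a log2 change of 0.4 was recovered for 33%, one of 0.8 for 85% and one of 1.5 for 97%, with 2, 9 and 12 false calls among 16995 genes. The simulated errors were independent, and in the data 24.9% of all genes passed at 28 dpi. The recovery in the real comparison can therefore differ, and recovery at the other times was not simulated. Replicates are animals. The clock genes and the gene lists were chosen with earlier results of these data known. All 10 clock genes are named, further clock genes where they passed or show a list's range, and for likeness the 5 highest and 5 lowest r with Dbp and Arntl, beside the ranks of some clock genes. The genes that overlap clock genes (GENCODE M21) were added after the values were seen. Gene positions are those of the authors' deposited table, and promoters are RefSeq's. Alternatives were other pseudocounts, a filter on the mean value, quantile normalization, median centring, the same sum per animal, no trend, a robust fit, the label number as a random block, a ribosomal RNA covariate, only the 2 groups compared and leaving out each animal. Listed genes that are not named are counted in their lists where they have values, and 1 gene left out of the lists is not reported here. Figures were drawn with matplotlib 3.10.9.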

Additional observations from a re-analysis of the deposited data

Results flagged for a closer look

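No clock gene had an animal far from the rest of its group in 60 gene and group combinations, where chance alone would give about 1 in 20. In 10 cases the level of a clock gene differed between 2 times after stroke by limma's test of the difference itself (adjusted p under 0.05). The sham group has no stated day, so these are differences between stroke groups. Dbp at 28 dpi differed from its level at 4, 7 and 14 dpi by -0.57, -0.59 and -0.57 on the log2 scale, and at 42 dpi from 14 dpi by -0.85. Nr1d1 at 28 dpi differed from 4, 7 and 14 dpi by 0.46, 0.41 and 0.74, and Nr1d2 by -0.23, -0.21 and -0.20. The differences at 28 dpi share the animals of that time. With the mean of each label number as 1 sample, every one of these differences of Dbp and Nr1d2 missed the threshold (limma adjusted p from 0.0758 to 0.150).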

How the results depend on the processing

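The number of clock genes called at 28 dpi was 1. It was 2 with no fold limit, 7 with the same sum of values in every animal, all lower and without Nr1d1, and 0 with the ribosomal RNA covariate. It stayed at 1 under the other alternatives, and at 4, 7, 14 and 42 dpi it was 0 under all of them. The same sum shifted the median of all genes at 28 dpi by -0.73 on the log2 scale, and under it Per1 (-0.56), Per3 (-0.60), Cry2 (-0.55) and Nr1d1 (-0.0601) turned negative at 28 dpi against the sham group. Nr1d1 at 28 dpi also turned negative against 4 dpi (-0.32) and 7 dpi (-0.28), where the median of all genes was -0.74 and -0.64 and Nr1d1 0.42 and 0.35 above it. Nr1d1 at 28 dpi against the sham group was 0.63 with the ribosomal RNA covariate (limma adjusted p = 0.0597), and from 0.61 to 0.78 with any 1 animal left out. Cry2 at 28 dpi also missed the threshold without a trend, with only the 2 groups, with the covariate, with label numbers as samples and without the 2 animals of highest Rn18s-rs5, the last 2 settings chosen after seeing the data. Nr1d2 at 28 dpi passed against the sham group without the sham animal A12-1 (-0.22, limma adjusted p = 0.032) or the 28 dpi animal A3-1 (-0.21, adjusted p = 0.024). Over all comparisons, 65 of 1367 refitted log2 fold changes of single clock genes no longer passed and 9 newly passed. The cause was not tested. The number of genes called at 28 dpi was 789, and from 0 (ribosomal RNA covariate) to 11086 (same sum). At 4, 7, 14 and 42 dpi it was 16 (3 to 33), 5 (0 to 20), 1 (0 to 33) and 4 (1 to 140). The random block for the label number had a consensus correlation of -0.04 over all genes. No paired analysis was possible because no animal label recurs between groups, which share only the number A3, at 28 and 42 dpi.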
